A study of Mus musculus with 6 samples.

Results

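The heme synthesis enzymes of neonatal mouse haematopoietic stem and progenitor cells were examined with and without Atg5, a component of the conjugation machinery that builds autophagosomes. The set comprised 9 genes, listed by name and by pathway with earlier results of these data known. The genes were Alas1, Alas2, Alad, Uros, Urod, Cpox, Ppox and Fech, which encode enzymes of the pathway, and Slc25a38, which encodes its mitochondrial glycine carrier. They were read by 16 of the 56605 probes on the array, and all 9 genes were among the 20778 gene names that could be tested. LSK cells (lineage marker-negative, Sca1-positive and c-Kit-positive), the bone marrow fraction that holds haematopoietic stem cells and early progenitors, had been sorted from C57BL/6 mice at postnatal day 6 to 8. The 3 control samples were Atg5w/w;VaviCre+, and the 3 Atg5f/f;Vav samples carried floxed Atg5 alleles with the same VaviCre transgene, so that Cre was present in both groups. The Vav promoter drives Cre throughout the haematopoietic system and not in LSK cells alone, and whether cells of several mice were pooled for a sample is not stated in the sources used here. Each RNA sample was labelled with Cy3 and hybridised to its own array. The comparison addressed how loss of Atg5 altered gene expression in LSK cells at this age.

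Heme is iron bound in protoporphyrin IX. Its synthesis begins in the mitochondrion, where 5-aminolevulinate synthase joins glycine to succinyl-CoA, continues in the cytosol, and returns to the mitochondrion for the last steps, in which the porphyrin ring is oxidised and iron is inserted. Most tissues use the synthase encoded by Alas1, which heme itself represses, whereas erythroid cells use the one encoded by Alas2, which is controlled by erythroid transcription factors and, at the level of translation, by iron.

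All values below are log2 signals relative to the 75th percentile of the array's own probes, so that 0 is the level of that percentile and a difference of 1 is a doubling. They serve to compare arrays at 1 probe, not to rank 1 gene against another, since probes differ in brightness. A difference is Atg5f/f;Vav minus control and was tested with limma, with p-values adjusted by the Benjamini-Hochberg method over all 32074 probes tested. Where a gene had several tested probes, the one with the brightest mean signal represented it.

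Because the paralogues Alas1 and Alas2 encode the same activity, the letters that told their transcripts apart on the array are shown. The coding part of an Alas1 probe (mm9, chr9:106137803-106137862, minus strand) and the coding part of the Alas2 probe before its stop codon (mm9, chrX:147004993-147005031, plus strand) read 5′ to 3′:
Alas1: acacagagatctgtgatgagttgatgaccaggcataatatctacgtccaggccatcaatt
Alas2: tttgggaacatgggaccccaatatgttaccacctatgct
Without gaps, the whole Alas2 probe of 60 bases matched the 3 Alas1 probes at 19 to 23 bases, and the longest run of identical bases was 6.

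The promoters of Alas2 and Cpox are shown because these members gave the largest difference in each direction and both hold a GATA motif. They are the 250 bases before the annotated transcript start (RefSeq, GRCm38.p6, sense strand), with matches to AGATAA or AGATAG or TGATAA or TGATAG on either strand in capitals. The Alas2 window is chrX:150547167-150547416 on the plus strand, and the Cpox window is chr16:58669958-58670207 on the plus strand:
Alas2: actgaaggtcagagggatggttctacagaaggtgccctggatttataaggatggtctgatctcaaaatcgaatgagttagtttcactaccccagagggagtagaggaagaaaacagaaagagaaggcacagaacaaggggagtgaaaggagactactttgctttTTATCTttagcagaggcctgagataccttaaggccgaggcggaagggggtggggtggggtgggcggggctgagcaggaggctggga
Cpox: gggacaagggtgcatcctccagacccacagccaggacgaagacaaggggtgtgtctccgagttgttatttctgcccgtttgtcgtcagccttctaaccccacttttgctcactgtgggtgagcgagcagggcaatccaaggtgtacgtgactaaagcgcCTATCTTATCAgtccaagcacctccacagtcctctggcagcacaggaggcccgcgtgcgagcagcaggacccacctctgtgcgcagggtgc
The Alas2 window held 1 GATA match, which ended 80 bases before the transcript start. The Cpox window held 2, ending 85 and 80 bases before it and sharing 1 base. RefSeq gave 11 windows for 8 of the 9 members, and 3 of these windows held a GATA match, against 26.5% of the 32851 promoter windows of all genes. The third was at a downstream start of Uros. A CACCC-box form, CCNCNCCC on either strand, was found in 7 of the 11 windows, against 45.9% of all windows. These windows belong to 5 of the 8 members, and those of Alad overlap, so that 1 site counts in both. In the Alas2 window lay 4 matches of this form, which overlap in part. The antioxidant response element form TGACNNNGC was found in 1 of the 11, that of Slc25a38, against 10.2%. These motifs were chosen after the expression values had been seen, and a match in letters is not evidence of binding.

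On the arrays, 51.6% to 58.2% of probes were well above background, with the lower part of that range, 51.6% to 54.8%, in Atg5f/f;Vav. The 6 arrays lay on 1 slide and came from 1 scan, but the control arrays occupied its first row and the Atg5f/f;Vav arrays its second, so that the row cannot be told apart from the genotype. The array's single Atg5 probe lies towards the 3′ end of the gene, away from the floxed exon, and so does not check the deletion. It read 0.93 to 1.10 in control and 1.46 to 1.74 in Atg5f/f;Vav, higher by 0.54 (SE 0.12, adjusted p = 0.02085). Over all 20778 gene names, 3887 were higher and 3189 were lower at an adjusted p under 0.05. This split was 2387 and 6028 when the percentile was taken over probes detected on all arrays, which moved the median difference of all genes to -0.24. It was 3150 and 349 when arrays were scaled on the spike-in transcripts, which moved that median to 0.51.

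Of the 9 members, 4 were higher in Atg5f/f;Vav than in control (Alad, Urod, Cpox and Slc25a38), 1 was lower (Alas2), and 4 did not pass the test (Alas1, Uros, Ppox and Fech). As background, 18.7% of all gene names were called higher and 15.3% lower. The median difference of the members was 0.75, against -0.03 for all gene names, and 8 of the 9 differences were above 0. The groups did not overlap for 7 members, 6 of them higher and 1 lower in Atg5f/f;Vav, where 29.6% of all gene names were higher and 26.3% lower without overlap. Of 18 other ways of processing, 6 leave every member's difference as it is, and in the 12 that alter differences, scaling on the spike-in transcripts and quantile normalization included, no member changed sign. In these sorted bulk samples, fewer cells of a type and less RNA per cell cannot be told apart. Leaving out an array changed the calls. Without control replicate 1 no member passed in limma (lowest adjusted p = 0.0673, for Alas2; 7 of the 9 at an unadjusted p under 0.05), and without control replicate 2 none did either (lowest adjusted p = 0.0721, also for Alas2; 5 of the 9 unadjusted). All gene names gave 124 higher and 78 lower calls in the former case and 108 and 54 in the latter. Without control replicate 3, and without Atg5f/f;Vav replicate 2, the calls were Alad and Alas2 alone.

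**Figure D1:**
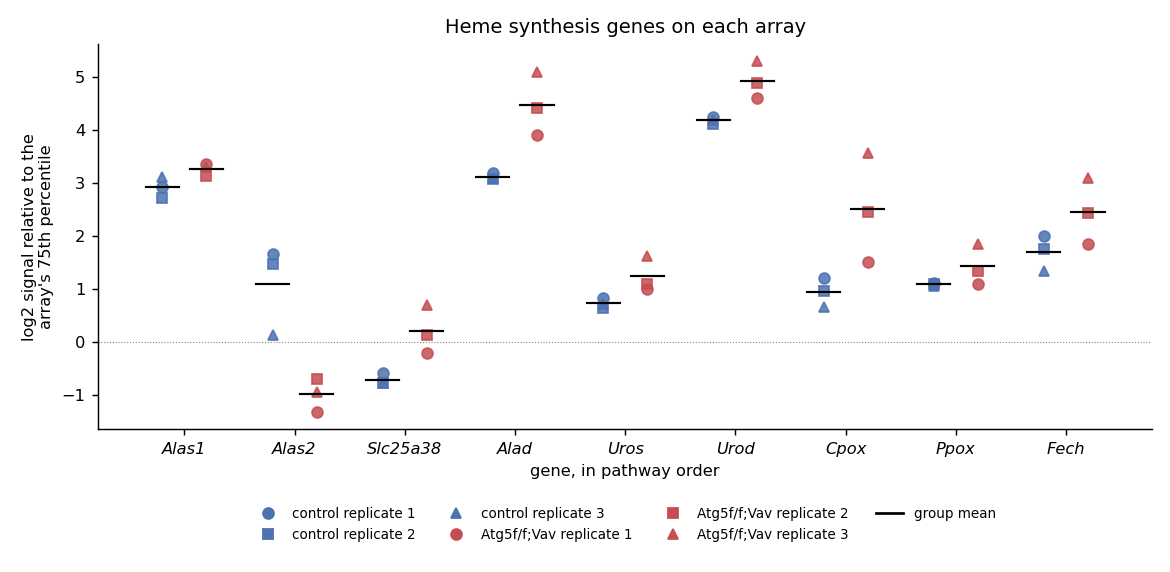
Log2 signal of each heme synthesis gene relative to the 75th percentile of the array, for the 3 control arrays (blue) and the 3 Atg5f/f;Vav arrays (red), with symbols for replicate number and a bar at the group mean. Alas2 is the only gene drawn whose Atg5f/f;Vav arrays, from -1.31 to -0.69, all sit below the control arrays, and Alas1 stays between 2.72 and 3.35 on all 6 arrays.

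The first and rate-limiting step separated the paralogous synthases. Alas2, the erythroid enzyme (probe at mm9, chrX:147004993-147005052), read 1.66, 1.48 and 0.13 in control replicates 1, 2 and 3 and -1.31, -0.69 and -0.93 in Atg5f/f;Vav replicates 1, 2 and 3. Every Atg5f/f;Vav array lay below every control array, and control replicate 3 stood apart from the other control arrays. Alas2 was 4.19-fold lower in Atg5f/f;Vav, a difference of -2.07 (SE 0.40, adjusted p = 0.01684). Leaving out 1 control array at a time, the difference was -1.79 without replicate 1 (adjusted p = 0.0673), -1.87 without replicate 2 (adjusted p = 0.0721) and -2.55 without replicate 3 (adjusted p = 0.0182).

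Alas1, the housekeeping enzyme, read 2.92, 2.72 and 3.12 in control and 3.35, 3.14 and 3.31 in Atg5f/f;Vav at its brightest probe (mm9, chr9:106136284-106136343). The Atg5f/f;Vav arrays lay just above the control arrays, but the difference of 0.35 (SE 0.14) did not pass the test (adjusted p = 0.08989). The coding probe printed above gave 0.46 (SE 0.17, adjusted p = 0.07283), also without overlap. A further coding probe (mm9, chr9:106141046-106141105) gave 0.60 (SE 0.22, adjusted p = 0.07055), with groups that overlapped. All 3 Alas1 probes thus lay on the side opposite to Alas2, and none passed the test. The size of the Alas1 difference depended on the scaling. At the brightest probe it was 0.08 after quantile normalization (limma, adjusted p = 0.613). With the percentile taken over probes detected on all arrays it was 0.14 (adjusted p = 0.364).

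Taken within each array, which removes any scaling between arrays, the Alas2 signal minus the Alas1 signal was -1.26, -1.24 and -2.99 in control and -4.66, -3.83 and -4.25 in Atg5f/f;Vav. The means were -1.83 ± 1.0 and -4.24 ± 0.41 (SD, n = 3), a shift of -2.42 with no overlap (exact permutation test, two-sided p = 0.1, the smallest that 3 against 3 arrays can give). The shift lay between -2.99 and -2.12 in every setting in which it was recomputed. Its permutation p was 0.2 when any 1 of the Atg5f/f;Vav arrays was left out and 0.1 in the other settings. Control replicate 3, at -2.99, lay between the other control arrays and the Atg5f/f;Vav arrays.

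Among genes well above background on all 6 arrays, 18378 names, the pattern most like that of Alas2 was that of the beta-globin gene Hbb-b1, with Pearson r = 0.999 over the 6 arrays and 0.996 for the deviations from the group means. The difference of Hbb-b1 itself was -1.92. The next were BB217111 (r = 0.999, difference -0.57), Zdhhc22 (r = 0.997, difference -2.0), 4933440N22Rik (r = 0.997, difference -0.44) and Gm15417 (r = 0.997, difference -0.34). Such an r thus does not depend on the size of the difference. For Alas1 they were Foxm1, a transcription factor of the cell cycle (r = 0.999), Ccdc34 (r = 0.997), Sclt1 (r = 0.996), Rnf113a2 (r = 0.995) and the unnamed array entry NAP111669-1 (r = 0.995). These values describe 6 arrays in 2 groups, picked from many genes, and were not tested.

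Slc25a38 imports the glycine that the synthases use. It read -0.59, -0.76 and -0.77 in control and -0.21, 0.14 and 0.71 in Atg5f/f;Vav (mm9, chr9:120032967-120033026). The groups did not overlap, and the gene was 1.89-fold higher (difference 0.92, SE 0.23, adjusted p = 0.02584). It passed the test in 12 of the 18 other settings.

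In the cytosol, Alad, Uros and Urod act on the way from 5-aminolevulinate to coproporphyrinogen. Alad, which condenses 5-aminolevulinate to porphobilinogen, read 3.19, 3.07 and 3.09 in control and 3.91, 4.41 and 5.10 in Atg5f/f;Vav (mm9, chr4:62170231-62170290). The control arrays lay within 0.13 of each other and the Atg5f/f;Vav arrays were spread over 1.19, all above them. Alad was 2.56-fold higher (difference 1.36, SE 0.28, adjusted p = 0.01805), and it passed in 15 of the 18 other settings. The other array probe that carries the name Alad lies on the opposite strand (mm9, chr4:62182797-62182856) and was not well above background on any array.

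Uros, which closes the ring to uroporphyrinogen III, read 0.83, 0.65 and 0.72 in control and 1.0, 1.10 and 1.62 in Atg5f/f;Vav at its brightest probe (mm9, chr7:140878069-140878128). The groups did not overlap, but the difference of 0.51 (SE 0.18) did not pass (adjusted p = 0.06556). A dimmer probe of the same gene (mm9, chr7:140889352-140889411) did pass, with a difference of 0.58 (SE 0.17, adjusted p = 0.04073). The probes differed little in size of effect and fell on either side of the threshold, so the call of Uros depends on the probe. Its last probe (mm9, chr7:140883817-140883876) was well above background on 2 Atg5f/f;Vav arrays alone and was not tested.

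Urod, which removes carboxyl groups to give coproporphyrinogen III, read 4.24, 4.12 and 4.18 in control and 4.60, 4.88 and 5.29 in Atg5f/f;Vav (mm9, chr4:116662850-116662909). The control arrays spanned 0.11 and the Atg5f/f;Vav arrays 0.69, without overlap. Urod was 1.68-fold higher (difference 0.75, SE 0.18, adjusted p = 0.02429). The difference shrank to 0.38 (adjusted p = 0.0978) after quantile normalization.

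The last steps return to the mitochondrion. Cpox, which oxidises coproporphyrinogen III to protoporphyrinogen IX and whose promoter is printed above, read 1.21, 0.97 and 0.67 in control and 1.52, 2.46 and 3.56 in Atg5f/f;Vav (mm9, chr16:58680403-58680465). It had the widest spread among the Atg5f/f;Vav arrays of the 9 members, 2.04, and the lowest of them stood just above control replicate 1. Cpox was 2.95-fold higher (difference 1.56, SE 0.47, adjusted p = 0.04277), close to the threshold, and it passed in 8 of the 18 other settings. The other Cpox probe (mm9, chr16:58677246-58677305) gave a difference of 1.0 (SE 0.51, adjusted p = 0.158), with groups that overlapped.

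Ppox, which oxidises protoporphyrinogen IX to protoporphyrin IX, read 1.12, 1.10 and 1.06 in control and 1.10, 1.35 and 1.85 in Atg5f/f;Vav. Its lowest Atg5f/f;Vav array lay among the control arrays. The difference of 0.34 (SE 0.19) did not pass (adjusted p = 0.2034). The other Ppox probe gave 0.08 (SE 0.19, adjusted p = 0.7657). The Ppox probes, of 60 bases, spanned 178 bases (mm9, chr1:173207452-173207629) and 354 bases (mm9, chr1:173209699-173210052) of the genome and so crossed exon junctions.

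Fech, the ferrochelatase that inserts iron, read 2.0, 1.76 and 1.34 in control and 1.85, 2.43 and 3.1 in Atg5f/f;Vav. The groups overlapped, and the difference of 0.76 (SE 0.33) did not pass (adjusted p = 0.1091). Fech passed in 2 of the 18 other settings: without Atg5f/f;Vav replicate 1 (1.07, adjusted p = 0.0337) and after scaling on spike-in transcripts (1.30, adjusted p = 0.0144).

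**Figure D2:**
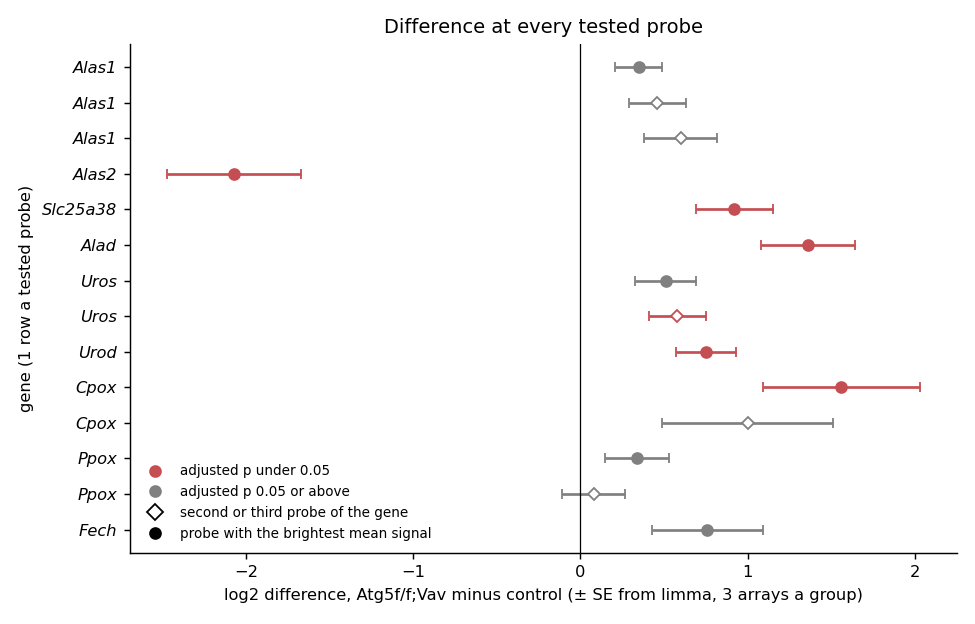
Log2 difference between Atg5f/f;Vav and control with its limma standard error for every tested probe of the 9 members, in pathway order; filled circles are the probes that represent a gene, open diamonds further probes, and red marks an adjusted p under 0.05. Only the Alas2 probe lies below 0, at -2.07, and the probes of Alas1, of Uros, of Cpox and of Ppox lie on the same side of 0 within each gene.

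The Atg5f/f;Vav arrays differed among themselves in a way that most members shared. Replicate 3 gave the highest of the Atg5f/f;Vav values for 7 of the 9 members, all but Alas1 and Alas2, and replicate 1 the lowest for 8 of the 9, all but Alas1. The erythroid transcription factor genes Gata1 and Klf1 were also highest on Atg5f/f;Vav replicate 3 and lowest on replicate 1. Leaving out replicate 3 lowered the median difference of the members to 0.44, and leaving out replicate 1 raised it to 0.91. Samples share an array across all genes, so these orders are not independent of each other. How many of all gene names showed the same order was not counted, so the order may not be particular to the members.

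**Figure D3:**
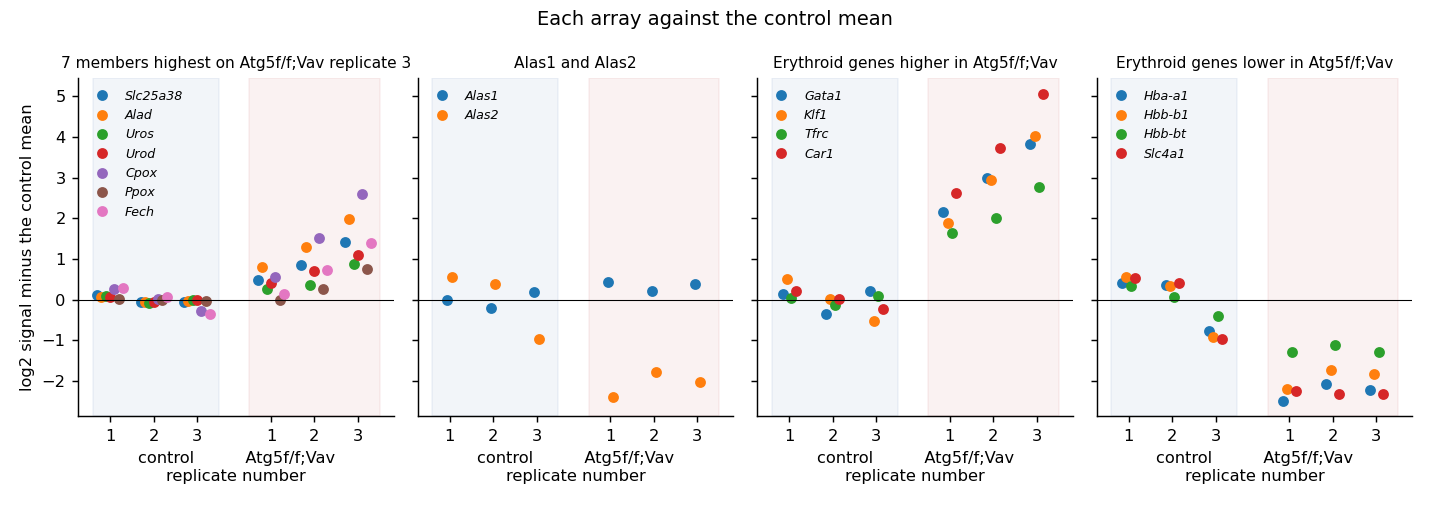
Log2 signal of each array minus the mean of the control arrays, by group and replicate number, for the 7 members that were highest on Atg5f/f;Vav replicate 3, for Alas1 and Alas2, and for 4 erythroid genes that were higher and 4 that were lower in Atg5f/f;Vav, picked after their values were seen. Alas2, like the globins and band 3 (Slc4a1), is lowest among the control arrays on replicate 3 and lies below 0 on all 3 Atg5f/f;Vav arrays.

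The erythroid genes outside the pathway moved in both directions, and their part in the results above was not tested. Of 8 erythroid transcription factor genes, 5 were higher and none lower (median difference 0.65), at an adjusted p under 0.05 in limma. After quantile normalization 3 were higher and 1 lower. Gata1, the master regulator of the lineage, read 0.87, 0.38 and 0.95 in control and 2.90, 3.73 and 4.56 in Atg5f/f;Vav, higher by 3.0 (adjusted p = 0.01208). Klf1, which activates globin and heme genes, read -1.58, -2.08 and -2.62 in control and -0.21, 0.85 and 1.93 in Atg5f/f;Vav, higher by 2.95 (adjusted p = 0.01594). Gfi1b, a repressor in the same lineage, was higher by 2.23 (adjusted p = 0.01519). The groups did not overlap for any of these 3.

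Of 22 erythroid markers, 20 were tested, 5 were higher and 6 lower, with a median difference of 0.19. The higher ones were led by Car1, a carbonic anhydrase of early erythroid cells (3.80, adjusted p = 0.01375), Rhag, a membrane protein of the Rh complex (2.41, adjusted p = 0.02898), and Aqp1, a water channel (2.31, adjusted p = 0.0149). The lower ones were led by Slc4a1, the anion exchanger band 3 of mature red cells (-2.29, adjusted p = 0.01493), and the alpha-globin genes Hba-a1 (-2.26, adjusted p = 0.01363) and Hba-a2 (-2.24, adjusted p = 0.01368), near-identical copies that probes may not tell apart. Their summed linear signal, in units of the 75th percentile, was 612 to 1290 in control and 273 to 392 in Atg5f/f;Vav, and all 20 tested were well above background on some array. The 5 globin genes made up most of that sum, 562 to 1210 in control and 207 to 260 in Atg5f/f;Vav, while the other 15 genes summed to 49.4 to 74.5 and 66.5 to 160. Since probes differ in brightness, such a sum follows the brightest probes and does not give the share of each transcript. It may also count the same alpha-globin transcripts at the probes of both Hba-a1 and Hba-a2. Control replicate 3 had the lowest sum over all 20 of the control arrays, as it had the lowest Alas2.

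Markers of the sorted cells and of other cell types were read in the same way. Of 10 LSK markers, all were detected, 1 was higher, Ly6a, the gene of Sca1 (1.57, adjusted p = 0.006226), and 3 were lower, led by Mecom (-1.75, adjusted p = 0.01684) and Hlf (-1.65, adjusted p = 0.01718), both transcription factors of stem cells, and Ptprc (-0.34, adjusted p = 0.04997). Their summed signal was 157 to 165 in control and 103 to 165 in Atg5f/f;Vav. Of 9 stromal markers, 7 were tested and 3 were lower, Col1a2 (-3.70, adjusted p = 0.03618), Sparc (-2.59, adjusted p = 0.02974) and Col1a1 (adjusted p = 0.04468). Col1a1 was well above background on the 3 control arrays and on no Atg5f/f;Vav array. It thus entered the test through the control group and has only a bound, at least 39-fold lower. Such a bound sets the mean of the bright group against the lowest signal well above background on each array of the dim group, or the probe's own signal where that is higher. Col1a1 read -4.14, 3.23 and 2.95 in control, so its mean rested on control replicates 2 and 3. The count of 3 became 0 without control replicate 2, without control replicate 3 or without Atg5f/f;Vav replicate 2, and 1 without either of the other Atg5f/f;Vav arrays or after quantile normalization. Col3a1 and Cdh5 were not well above background on any array. The signal summed over the stromal markers was 9.91 to 40.1 in control, with the lowest in control replicate 1, and 5.63 to 8.83 in Atg5f/f;Vav. Of 12 neutrophil and monocyte markers, 4 were higher, led by Ctsg (1.91, adjusted p = 0.03008), Mpo (1.0, adjusted p = 0.03908) and Prtn3 (0.89, adjusted p = 0.02582), and 5 lower, led by S100a8 (-1.38, adjusted p = 0.02525), Ltf (-1.38, adjusted p = 0.02062) and S100a9 (-1.34, adjusted p = 0.0235), with sums of 217 to 328 in control and 274 to 324 in Atg5f/f;Vav. The 4 higher became 2 after quantile normalization and 1 without Atg5f/f;Vav replicate 1, with 5 lower in both settings. The 5 lower became 2 without control replicate 3, with 4 higher, and 1 without Atg5f/f;Vav replicate 2, with 3 higher.

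Of the 6 megakaryocyte markers tested, 1 was higher, Itga2b (1.17, adjusted p = 0.01363), and 3 were lower, Vwf (-0.70, adjusted p = 0.03051), Gp9 (-0.63, adjusted p = 0.03747) and Ppbp (adjusted p = 0.01125). Ppbp was well above background on the 3 control arrays and on no Atg5f/f;Vav array. It thus entered the test through the control group and has only a bound, at least 1.22-fold lower. The signal of these markers summed to 7.56 to 9.07 in control and 6.40 to 6.79 in Atg5f/f;Vav. Macrophage markers (5 tested of 8, 1 lower, Vcam1 at -1.42, adjusted p = 0.008644; Cd163 not well above background on any array) summed to 1.75 to 2.86 in control and 1.87 to 2.06 in Atg5f/f;Vav. B cell markers (7 of 7 tested, 1 higher, Cd79a at 0.95, adjusted p = 0.02274, well above background on 1 control array and 3 Atg5f/f;Vav arrays) summed to 8.87 to 11.8 and 10.3 to 17.1. T and NK cell markers (5 of 7 tested, none called; Cd3g and Cd8a not well above background on any array) summed to 7.24 to 10.8 and 10.3 to 11.4. Mast cell and eosinophil markers (6 of 6 tested, 1 higher, Ms4a2 at 2.96, adjusted p = 0.006892) summed to 5.57 to 11.1 and 6.57 to 10.3. The part of these cell types in the result was not tested.

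Supply to the first step was read from 8 genes of glycine and succinyl-CoA metabolism, of which 5 were higher and none lower (median 0.44). They were led by Shmt2, the mitochondrial enzyme that makes glycine from serine (1.09, adjusted p = 0.01526), and by Dlst (0.72, adjusted p = 0.01784) and Dld (0.67, adjusted p = 0.01684), subunits of the complex that makes succinyl-CoA. Of 10 regulators of the synthases, 4 were higher and 1 lower (median 0.36). Nr1d1, a heme-binding repressor, was higher by 0.87 (adjusted p = 0.04172), as were the mitochondrial proteases Clpp (0.77, adjusted p = 0.01646) and Lonp1 (0.62, adjusted p = 0.02384). After quantile normalization the 10 regulators gave 2 higher and 1 lower. Nr1d1 was well above background on 2 of the control arrays and on all 3 Atg5f/f;Vav arrays. Ppargc1a, a coactivator known to induce Alas1 in liver, was well above background on the 3 control arrays and on no Atg5f/f;Vav array, so that it entered the test through the control group and has only a bound, at least 1.7-fold lower (adjusted p = 0.01701).

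Of 8 carriers of porphyrins, iron and heme, 2 were higher and 1 lower (median 0.28). Abcb6, a porphyrin transporter, was higher by 1.48 (adjusted p = 0.02264) and Tmem14c, needed for porphyrin transport in the mitochondrion, by 1.07 (adjusted p = 0.01539). Slc25a37, the mitoferrin that brings iron into mitochondria of erythroid cells, read 3.49, 3.41 and 3.16 in control and 2.82, 2.58 and 2.55 in Atg5f/f;Vav, a difference of -0.71 (adjusted p = 0.01684). It was, with Alas2, the gene of the synthesis and transport lists that was called lower. Of 13 genes that assemble iron-sulphur clusters, which draw on mitochondrial iron as heme does, 8 were higher and none lower (median 0.58), led by Glrx5 (1.11, adjusted p = 0.01727), the chaperone Hspa9 (0.88, adjusted p = 0.01664) and Lyrm4 (0.87, adjusted p = 0.02441). Of these 13, 5 were higher and none lower after quantile normalization, and likewise without control replicate 3.

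Of 9 genes of heme degradation and export, 8 were tested and 3 were higher (median 0.41). Blvrb, a biliverdin reductase, was higher by 2.39 (adjusted p = 0.01741), the heme exporter gene Flvcr1 by 0.90 (adjusted p = 0.03136) and Blvra, the other biliverdin reductase, by 0.55 (adjusted p = 0.02841). Over all the pathway and marker lists beside the members, 63 genes were called, where 18.7% of all gene names were called higher and 15.3% lower. These 63 join both directions and are a count, not a share. The number tested in each list is given with that list above. The count was 6 without control replicate 1, where all gene names gave 124 higher and 78 lower calls. It was 3 without control replicate 2, where they gave 108 and 54.

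**Figure D4:**
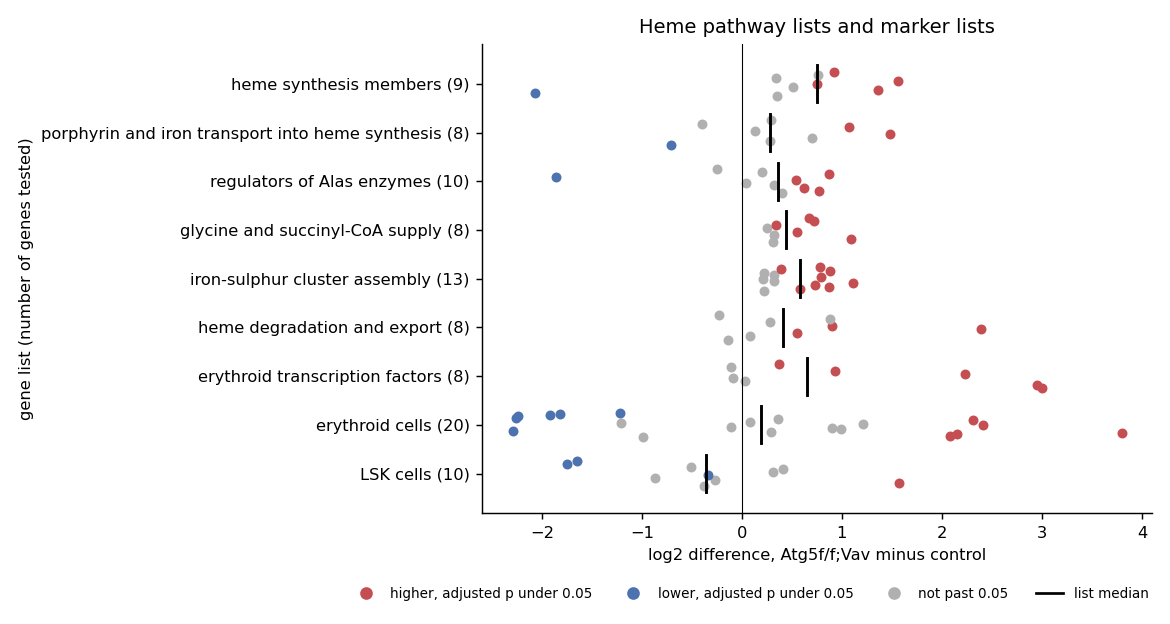
Log2 difference between Atg5f/f;Vav and control for every tested gene of the members and of 8 other lists, with the list median as a bar. Red and blue mark genes higher and lower at an adjusted p under 0.05. The blue point of the Alas regulators is Ppargc1a, which was well above background on no Atg5f/f;Vav array. The medians of the members (0.75) and of the iron-sulphur list (0.58) lie to the right of 0, and the erythroid markers spread from -2.29 to 3.80.

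The size of the members' differences depended on the scaling. Scaling on spike-in transcripts, an alternative added after the data had been seen, raised the median of the members to 1.29 while that of all genes rose to 0.51, and quantile normalization lowered the members to 0.41 while all genes stood at -0.02.

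**Figure D5:**
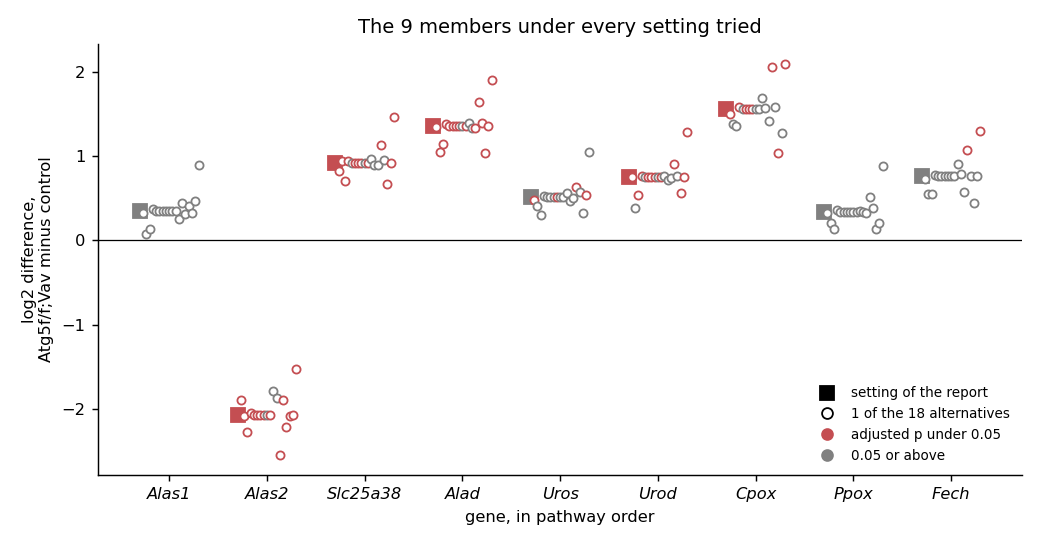
Log2 difference of each of the 9 members in the setting of the report (filled squares) and in 18 alternatives (open circles), which change the background correction, scaling, filter, test or probe rule or leave out an array; red marks an adjusted p under 0.05. No point crosses 0; Alas2 ranges from -2.55 to -1.53, Alad from 1.04 to 1.90, and the Alas1 and Ppox points are grey throughout.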

How the data were processed

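Total RNA of sorted LSK cells was labelled with Cy3 and hybridised to 1-colour Agilent mouse arrays by the authors, 1 array per sample. Per the labels and the file headers, the deposited scanner files hold spot intensities from Agilent Feature Extraction (version 12.0.3.1, per the submitters' processing notes), with probe positions on mm9. The authors also deposited a table of linear signal, which the values show to be the intensity over the 75th percentile of all spots on that array. It was used as an alternative only.

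Background-corrected, detrended intensities were converted to log2 and the 75th percentile of each array's biological probes was subtracted; these log2 values were computed here from the deposited intensities. Outlier-flagged spots were left out (64 to 81 an array, none at a member), and saturation was not seen. The test, limma 3.58.1 (lmFit and eBayes) in R 4.3.3, took probes that exceeded background clearly on 3 or more of the 6 arrays, at a Benjamini-Hochberg adjusted p under 0.05. The study's methods name Student's unpaired test, which was run as an alternative. Arrays have no read depth, so precision is limited by their number, 3 a group. Where samples are not separate mice, p-values measure only the spread between these samples. The code was tested on simulated data. The members, pathway lists and marker lists were chosen with earlier results of these data known. Named genes were all members with every probe, at most 3 a direction by size from each list, and the 5 most alike in pattern to Alas1 and to Alas2. Flvcr1 was found on the array under an older name. Promoters are RefSeq windows of GRCm38.p6, another build than the probes' mm9, and the builds were not mixed. 1 gene of the pathway is not reported here.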

Additional observations from a re-analysis of the deposited data

How the results depend on the processing

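Of 18 alternatives, 6 leave every member's difference as it is, and none of the other 12 turned the sign of a member. Alas2 and Alad each passed the test in 15 of them, Slc25a38 in 12, Urod in 11, Cpox in 8, Uros in 4, Fech in 2, and Alas1 and Ppox in none. Against 5 members called (4 higher and 1 lower) and a median of 0.75, quantile normalization gave 3 called, 2 of them higher, and a median of 0.41, with 2883 gene names higher and 2409 lower in all. Testing all probes without a filter on dim ones gave 2 called, 1 of them higher, with 37074 gene names tested. The methods' t-test gave 0 members called, 0 higher and 0 lower, after adjustment (none of all genes either), and 4 members at an unadjusted p under 0.05 against 7 with limma. Leaving out 1 array at a time gave 0 to 7 members called, 0 to 6 higher and 0 to 1 lower, medians from 0.44 to 0.91 and 3 to 58 genes called in the pathway and marker lists (63 with all arrays), beside 108 to 3481 gene names higher and 54 to 3288 lower in all. No filter gave 1618 higher and 1209 lower gene names and leaving out controls 1 and 2 the counts in the report, against 3887 and 3189. Scaling on spike-in transcripts, chosen after seeing the data, moved the median to 1.29. The cause was not tested. The sample titles share replicate numbers. Deviations of same-numbered arrays correlated at -0.065, 0.189 and 0.111 for replicates 1, 2 and 3. In each group, replicates 2 and 3 correlated best with their own number, and replicate 1 did not. With 3 arrays a group this cannot decide whether the numbers pair the samples. The test of the report was therefore unpaired, and a replicate block was run as an alternative. With that block 4 members were called, 3 higher and 1 lower, with the median at 0.75. The within-array Alas shift was -2.42, and over all gene names 3726 were higher and 2827 lower. A slide or scan block was not run, since all 6 arrays share 1 slide and 1 scan. Dim signal limited 1 Alad and 1 Uros probe.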
